A study of Cavia porcellus with 34 samples.

Results

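The 16 Veh animals of the series, of 32 animals in all, are the subject here: 5 of the first generation (F1), 5 of F2 and 6 of F3. They were chosen by their treatment label alone, as every animal whose line began with a pregnant F0 female given saline, and the other 16 animals descend from F0 females given the synthetic glucocorticoid betamethasone (sGC). All were juvenile Dunkin-Hartley female guinea pigs of the paternal line, killed at postnatal day 40. As the methods describe, juveniles of these litters had been through behavioural tests before that day. F1 animals were in utero when the saline was given, whereas F2 and F3 animals were sired by Veh F1 and F2 males mated with naive females, and each animal stands for an independent litter. RNA came from a punch of the anteromedial hypothalamus that held the whole paraventricular nucleus (PVN) and, as the methods state, could hold neighbouring hypothalamus. The question was descriptive: which genes were most abundant in the saline line, and which differed most from one Veh animal to the next.

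The PVN holds magnocellular neurons that make vasopressin and oxytocin for release in the posterior pituitary, and parvocellular neurons that make corticotropin-releasing hormone, thyrotropin-releasing hormone and somatostatin for control of the anterior pituitary. It lies beside the wall of the third ventricle, which is lined by ciliated ependymal cells and tanycytes. The thalamus lies dorsal to it, the lateral hypothalamus to its side, and the arcuate and ventromedial nuclei below and behind it. Each of these neighbours has its own defining genes. In bulk tissue, fewer cells of one type and less RNA per cell cannot be told apart.

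Values are normalized counts, which were normalized separately in each generation, so ranks and spreads are given within a generation. Spread is the standard deviation (SD) between the animals of log2(value + 1), over genes with a mean of at least 50. This left 10976 genes in F1, 11113 in F2 and 10948 in F3. Sample totals were 15573233 to 21935501 in F1, 17372047 to 19435104 in F2 and 18692048 to 18913836 in F3, and the median SD over all genes was 0.23, 0.15 and 0.077. Scaling to size factors took the F1 median to 0.092, the F2 median to 0.12 and left F3 at 0.077, so a large share of the F1 spread went with the totals. The residual normalization removes variation within groups, and SDs of different generations are therefore not compared as levels.

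The F1 animal SGM11 stood apart by being close to the mean of the others. It had the highest value of the 5 animals for 0% of genes and the lowest for 0.0364%, and its median distance from the F1 mean was 0.016 on the log2 scale against 0.11 to 0.30 in the other 4 animals. The fourth of the 4 components that 5 animals can span held 0.0956% of the F1 variance, against 2.56% in F2, and the fifth in F3 held 7.48%. F1 thus carried close to 3 independent contrasts between animals, while the tests below count 4. Without SGM11 the median SD over all F1 genes was 0.26, the SD of SHOX2 was 2.90, that of AVP 0.55, that of OXT 0.59, that of POMC 1.74, that of PMCH 2.22 and that of TCF7L2 1.51, each higher than with it. Counts without SGM11 are given below for the genes of high SD, the lead pairs and the associations.

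The tissue label was checked against markers of the nucleus, and they were present. SIM1, OTP and POU3F2, transcription factors that specify PVN neurons, each had a mean above 50 in all 3 generations, as did the other members of the list of 6 PVN lineage factors. Most genes passed this minimum: 10976 of 12114 in F1, 11113 of 12207 in F2 and 10948 of 12068 in F3. Markers of neighbouring tissue, such as thalamic genes, were among them. Presence of the factors thus does not tell the PVN from its neighbours. SIM1, which is required for the nucleus to form, had 1532, 1601, 1322, 1203 and 1029 normalized counts in the F1 animals SGM3, SGM7, SGM11, SGM15 and SGM19. It had 1002, 908, 1024, 1010 and 942 in the F2 animals SGM22, SGM23, SGM27, SGM28 and SGM29, and 877, 1345, 1283, 782, 962 and 1014 in the F3 animals SGM13, SGM14, SGM17, SGM5, SGM9 and SGM1. No animal lacked it. Its SD was 0.26, 0.074 and 0.31. The values of every gene below follow the same order of animals.

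Genes of glia, secreted proteins and neuronal signalling were the most abundant. GNAS, which encodes a stimulatory G protein subunit, ranked 1st in F1, 1st in F2 and 6th in F3, with means of 117270, 72821 and 58950 normalized counts. SPARC, a matrix glycoprotein of glia and vessels, ranked 3rd, 2nd and 2nd. Clu, the chaperone clusterin, ranked 5th, 4th and 1st. Of the 15 most abundant genes per generation, 9 were shared by all 3, among them APOE, a lipid carrier of astrocytes, AQP4, Clu, GNAS and SPARC. AQP4, the water channel of astrocyte endfeet, ranked 15th, 8th and 3rd. These ranks come from normalized counts that were not divided by transcript length, so a long transcript ranks higher at the same number of molecules. The 15 genes took 4.96%, 4.30% and 4.66% of all normalized counts, and mean levels ranked alike between generations, with Spearman coefficients across genes of 0.951 to 0.963, genes not being independent replicates.

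The magnocellular peptides ranked lower in F3 than in F1, while levels themselves cannot be set side by side across generations. AVP, vasopressin, ranked 2nd in F1, 10th in F2 and 144th in F3. OXT, oxytocin, ranked 4th, 24th and 298th. AVP had 105166, 110112, 88264, 95906 and 48718 normalized counts in F1. The F2 animals had 41098, 53494, 40355, 57143 and 29575, and those of F3 had 11163, 21571, 26259, 10141, 6289 and 11083. The highest F1 animal had 2.26 times the lowest, the highest F2 animal 1.93 times and the highest F3 animal 4.18 times. OXT had 80394, 89532, 68822, 78412 and 36797 in F1. Its F2 values were 45805, 36772, 35387, 28777 and 22786, and its F3 values 7546, 11066, 17091, 5777, 3273 and 6773. The same animal was lowest for both peptides in each generation: SGM19 in F1, SGM29 in F2 and SGM9 in F3. In F1 this 1 animal set the spread, since without SGM19 the SD fell from 0.48 to 0.14 for AVP and from 0.51 to 0.16 for OXT. In F3 both were among the 10 genes of highest SD, at 0.76 for AVP and 0.81 for OXT.

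The parvocellular peptides were less abundant. SST, somatostatin, ranked 432nd, 942nd and 683rd. TRH ranked 1245th, 1626th and 2074th. CRH, the releasing hormone that drives the pituitary-adrenal axis, ranked 8361st, 9101st and 9613th. CRH had 320, 314, 298, 424 and 214 normalized counts in F1. The F2 animals had 261, 267, 285, 253 and 162, and those of F3 had 117, 194, 237, 90, 157 and 137. As with the magnocellular peptides, SGM19 and SGM29 were lowest in F1 and F2, but in F3 the lowest was SGM5. TRH had 3043, 4032, 3067, 2823 and 2673 in F1. Its F2 values were 2649, 3600, 2896, 2046 and 2140, and its F3 values 1985, 3196, 2609, 1190, 1884 and 2501. SST had 10845, 8310, 5774, 3386 and 3128 in F1. Its F2 values were 4398, 5285, 4317, 1715 and 3767, and its F3 values 5527, 4630, 5681, 6153, 2674 and 5391. SGM28 was lowest in F2 for SST, and for TRH on the deposited scale, where SGM29 was close. With size factors SGM29 was lowest in 4 of the 5 peptides and SGM28 in 1. Over all F2 genes the shares with size factors were 13.2% and 30.1%. The median SD of the 5 peptides was 0.48, 0.38 and 0.50 against 0.23, 0.15 and 0.077 over all genes. It was 0.38 in F1 with size factors, against 0.092.

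**Figure D1:**
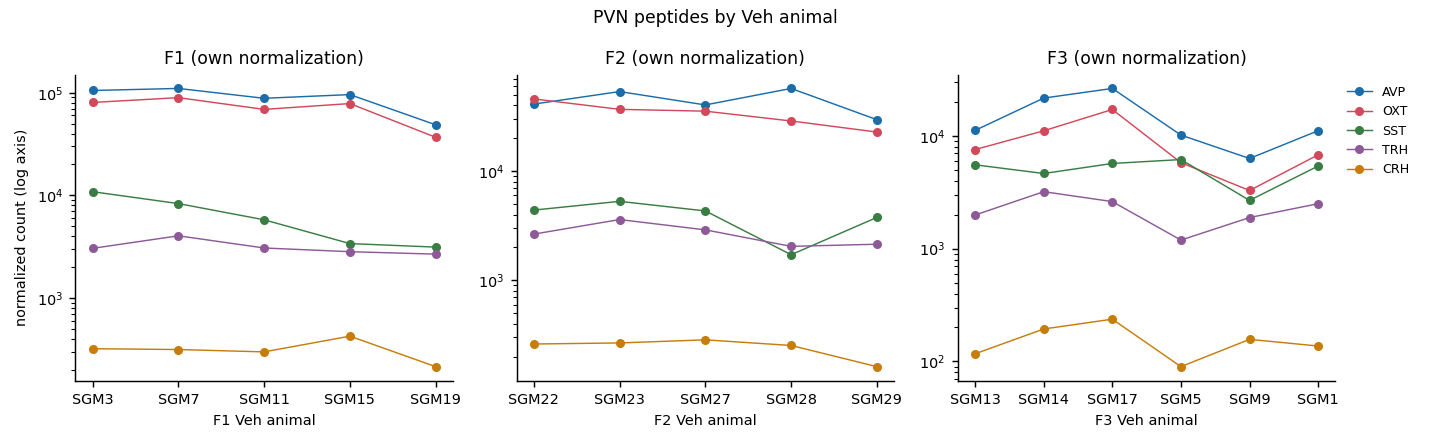
Normalized counts of AVP, OXT, SST, TRH and CRH on a log axis for each Veh animal, with F1, F2 and F3 in separate panels on their own normalization. Lines join the values of 1 gene and have no order in time. SGM19 in F1 and SGM29 in F2 are low for AVP, OXT and CRH, and SGM17 is highest in F3 for AVP at 26259.

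Few genes spread widely between Veh animals. An SD of at least 0.5 was reached by 240 genes in F1 (2.19%), 517 in F2 (4.65%) and 57 in F3 (0.521%). An SD of at least 1 was reached by 16, 101 and 1. With size factors the F1 count was 137, and without SGM11 it was 385. The 50th gene by spread had an SD of 0.741 in F1, 1.38 in F2 and 0.521 in F3, and the 51st had 0.738, 1.37 and 0.517. Between F1 and F3, 16 of these 50 were shared (32% of each), between F1 and F2 3 (6%), and between F2 and F3 1 (2%). Each 50 came from 10976 genes in F1, 11113 in F2 or 10948 in F3. Of the 50 of 1 generation, 35 to 48 had a mean of at least 50 in another, and the rest could not be shared. TCF7L2, a transcription factor of thalamic neurons, was the only gene among the 50 in all 3. Among the 100 of highest SD, 6 genes recurred in all 3 generations: TCF7L2, LHX9, SIX6, TH, TMEM72 and SERPINB7.

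**Figure D2:**
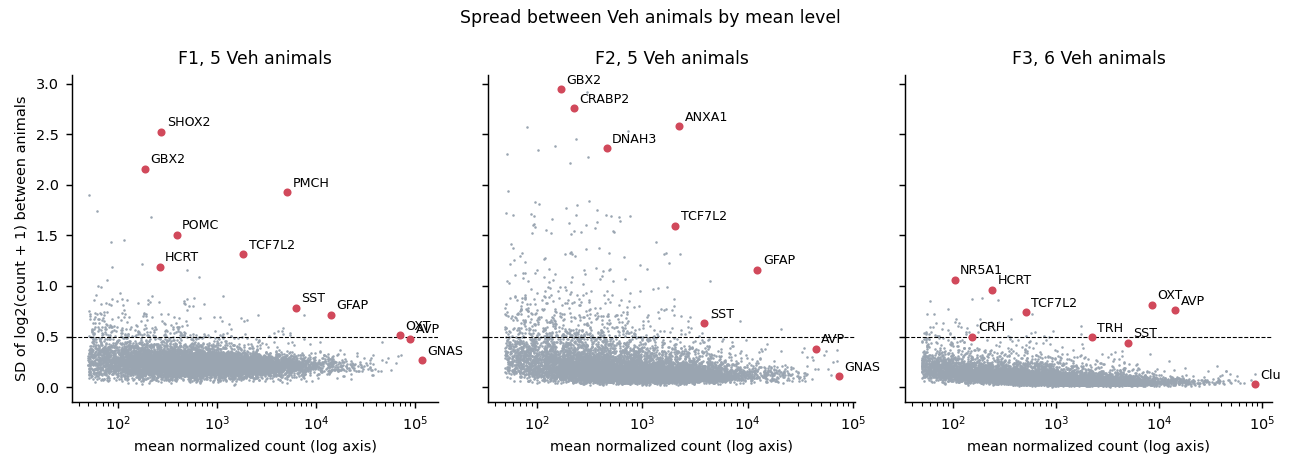
SD of log2(count + 1) between Veh animals against the mean normalized count on a log axis, 1 point per gene with a mean of at least 50, in F1, F2 and F3. The dashed line is an SD of 0.5, with 240, 517 and 57 genes at or above it. Named genes are in red, and in F3 OXT and AVP have SDs of 0.81 and 0.76.

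In F1 markers of the tissue around the PVN were among the most variable genes, and 3 groups of them peaked or dipped in 1 animal. Several thalamic genes were high in SGM15. Of the 9 thalamic and prethalamic genes on the list with a mean of at least 50, SGM15 was highest in 6 and lowest in 1, and SGM7 highest in 3. With size factors SGM15 was highest in 7 and lowest in 1. Over all F1 genes it was highest for 3.07%, or 28.3% with size factors. SHOX2, a homeobox factor of dorsal thalamus, had the highest SD of all F1 genes at 2.53, with 28, 185, 56, 1089 and 11 normalized counts. GBX2, which specifies thalamic neurons, had 44, 102, 52, 718 and 11, an SD of 2.16. TCF7L2 had 693, 1467, 1070, 5450 and 523, an SD of 1.31. CALB2, the calcium-binding protein calretinin, had 4471, 6779, 6311, 15629 and 4898. In all 4 genes SGM15 was highest, and without it the SD of SHOX2 was 1.67 and that of TCF7L2 0.66. Of the 9 genes of the list, 4 had an SD of at least 0.5.

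Lateral hypothalamic peptides went the other way in the same animal. PMCH, which encodes melanin-concentrating hormone, had 10365, 3279, 3344, 350 and 8047 normalized counts, an SD of 1.92. HCRT, which encodes the orexins, had 528, 177, 216, 58 and 338, an SD of 1.19. SGM15 was lowest and SGM3 highest for both. Without SGM15 the SD of PMCH was 0.86. The 6 genes of forebrain GABA neurons on the list, among them DLX1 and DLX2, were also lowest in SGM15 on the deposited scale, with DLX1 at 1394, 1373, 1124, 591 and 1150. With size factors SGM15 was lowest in 4 of the 6. Over all F1 genes it was lowest for 44.8%, or 28.5% with size factors. The summed level of the lateral hypothalamic peptides ranged from 408 to 10893 normalized counts between the 5 animals, and that of the thalamic list from 7967 to 25586. Where each punch lay is not given, and its part in these values was not tested.

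Some arcuate genes were high in a different animal. Of the 5 arcuate and feeding peptides on the list, SGM7 was highest in 3 and SGM15 lowest in 4, while SGM3 and SGM19 were each highest in 1. With size factors SGM7 was highest in 3 and lowest in 1. POMC, the precursor of melanocortins and beta-endorphin, had 160, 1372, 204, 102 and 123 normalized counts, an SD of 1.51. TBX3, a transcription factor of arcuate neurons, had 59, 798, 96, 40 and 74, an SD of 1.68. TAC3, which encodes neurokinin B, had 988, 2454, 975, 425 and 896. SGM7 was highest for all 3 and SGM15 lowest. Without SGM7 the SD of POMC was 0.43. SGM7 also had the highest total and was the highest animal for 85.4% of all genes, or 25.2% with size factors. With size factors the SD of POMC was 1.33 and that of TAC3 0.73. Over the 50 genes of highest SD, SGM7 was highest in 29 and SGM15 lowest in 26. Over all genes the shares were 85.4% and 44.8%. With size factors both counts were 26 of the 50, against 25.2% and 28.5% of all genes.

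**Figure D3:**
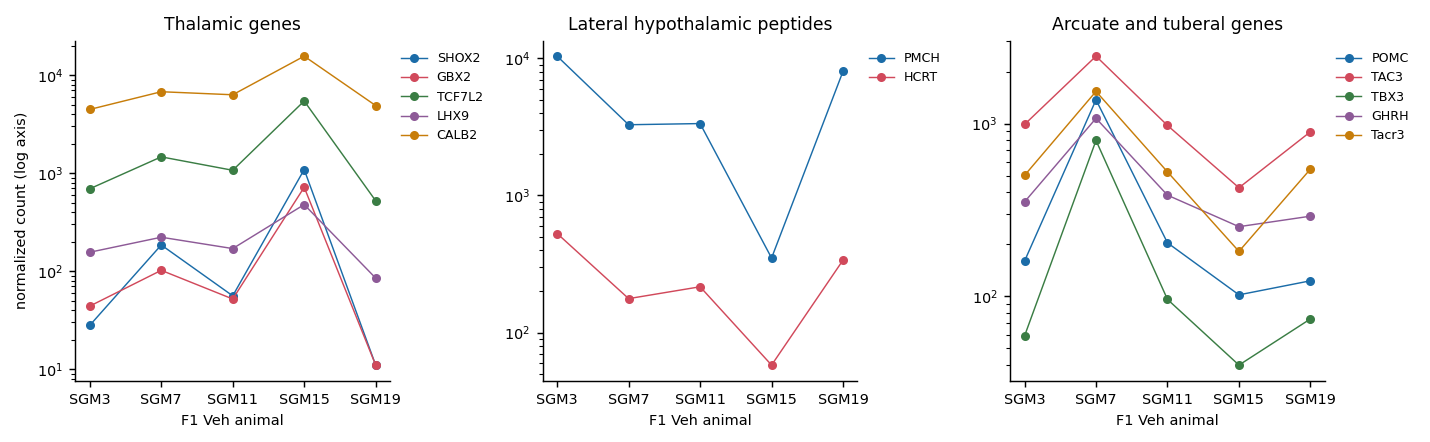
Normalized counts on a log axis of thalamic genes, lateral hypothalamic peptides and arcuate genes in each of the 5 F1 Veh animals. SGM15 is highest for the thalamic genes (SHOX2 1089) and lowest for PMCH (350), and SGM7 is highest for POMC (1372).

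In F2 genes of motile cilia, which beat on the ependyma that lines the ventricle, spread widely. DNAH3, an axonemal dynein heavy chain, had 1279, 505, 219, 15 and 293 normalized counts, an SD of 2.36. WDR63, an axonemal dynein component, had 2165, 726, 370, 18 and 395. SGM22 was highest and SGM28 lowest for both, and these 2 animals differed 85.3-fold for DNAH3 and 120-fold for WDR63. Among the 50 genes of highest SD in F2, SGM22 was highest in 45 and SGM28 lowest in 46. A list of 57 cilium and axoneme genes, drawn from symbols after the pattern had been seen, had 52 members with a mean of at least 50. Of these, 29 had an SD of at least 0.5 and the median SD was 0.68, against 4.65% and 0.15 over all genes. SGM22 was highest in 48 and SGM28 lowest in 45. Over all F2 genes the shares were 38.8% and 34.6%, or 31.8% and 30.1% with size factors. An SD of 0.5 was reached by 2 of 52 cilium genes in F1, where 2.19% of all genes did so, and by 0 of 51 in F3, where 0.521% did. Their median SD was 0.34 in F1 and 0.13 in F3, against 0.23 and 0.077 over all genes. The summed level of the list ranged from 23889 to 51732 normalized counts in F2. Without SGM22 and SGM28 together, 1 of 51 cilium genes and 152 genes in all reached an SD of 0.5 in F2. These 2 animals were picked after they had been seen at the extremes, so the fall was built in and tests nothing.

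Some genes of other cells near the ventricle and vessels had the same highest and lowest animals in F2. GFAP, the intermediate filament of fibrous astrocytes, had 29089, 10895, 10892, 3088 and 7870 normalized counts, an SD of 1.16. ANXA1, an annexin of ependyma and meninges, had 7141, 1647, 1132, 52 and 1231. CRABP2, a retinoic acid binding protein of meninges, had 811, 92, 124, 3 and 94. TAGLN, of smooth muscle, had 4675, 734, 1067, 404 and 1603. All 4 were highest in SGM22 and lowest in SGM28. Of 9 astrocyte genes, SGM22 was highest in 7 and SGM28 lowest in 8, where the shares over all F2 genes were 38.8% and 34.6%. Only GFAP of the 9 had an SD of at least 0.5, and the median SD of the list, 0.19, was close to the 0.15 of all genes. Of 9 endothelial genes, 2 had an SD of at least 0.5, and none with size factors. Only 3 smooth muscle and pericyte genes were measured in F2, and of these TAGLN alone had an SD of at least 0.5. Their summed level ranged from 2228 to 7459 normalized counts. The summed level of 3 choroid plexus genes, 1 of them with an SD of at least 0.5, ranged from 501 to 751. OLFML1, an olfactomedin-like secreted protein, broke the order with 110, 12, 13, 8 and 369, highest in SGM29.

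**Figure D4:**
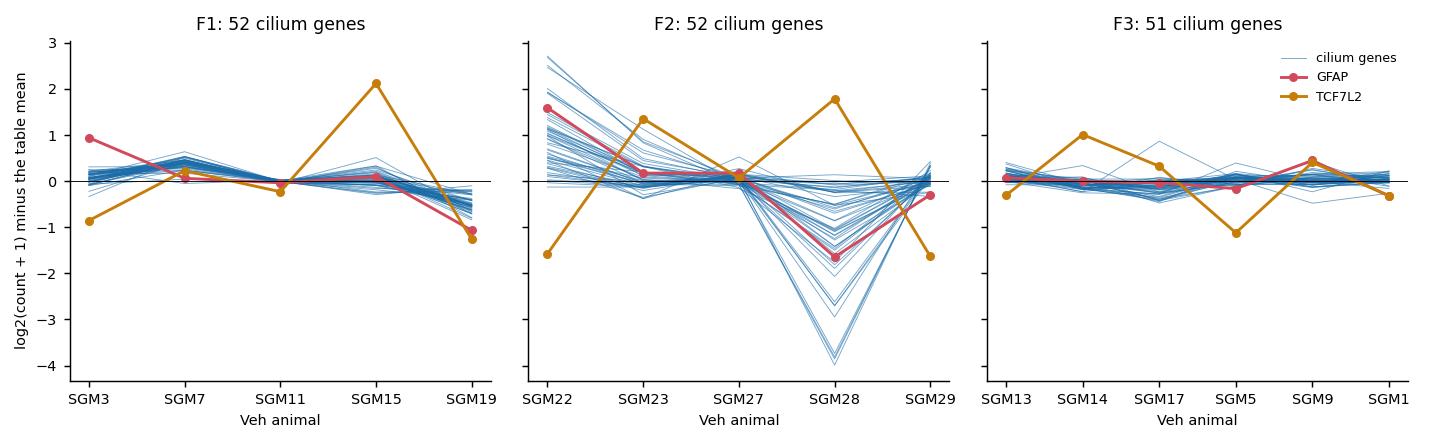
Difference of log2(count + 1) from the mean of the generation for each cilium gene (thin lines), GFAP and TCF7L2 in each Veh animal of F1, F2 and F3. In F2 the cilium genes and GFAP are high in SGM22 and low in SGM28, whereas TCF7L2 is lowest in SGM29 and SGM22 and highest in SGM28.

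Thalamic genes were also among the most variable in F2. GBX2 had 23, 398, 221, 211 and 2 normalized counts and SHOX2 had 24, 527, 287, 655 and 6, the 2 highest SDs of F2 at 2.94 and 2.92. TCF7L2 had 448, 3419, 1403, 4606 and 430, an SD of 1.59. SGM22 and SGM29 were the 2 lowest animals for all 3 genes. Without SGM29 the SD of SHOX2 was 2.17. CALB2 had 5070, 12601, 8014, 12018 and 4838. Of 8 thalamic genes with a mean of at least 50, 5 had an SD of at least 0.5. PMCH had 5661, 5657, 11697, 5955 and 6712, an SD of 0.44, with SGM27 alone apart from the rest. POMC had 287, 145, 210, 198 and 218, an SD of 0.35.

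In F3 no single animal held the extremes. Over the 50 genes of highest SD, no animal was highest in more than 12 or lowest in more than 12. NR5A1, the defining factor of the ventromedial nucleus, had the highest SD, 1.06, with 98, 55, 27, 212, 162 and 73 normalized counts. HCRT had 173, 302, 574, 130, 84 and 178, an SD of 0.96. SIX6, a factor of the suprachiasmatic and anterior hypothalamus, had 257, 57, 90, 271, 137 and 115, an SD of 0.87. TCF7L2 had 372, 928, 576, 211, 610 and 370, an SD of 0.74. The animals low for NR5A1, SGM17 and SGM14, were the 2 highest for AVP, OXT, HCRT and CRH, and SGM5, the highest for NR5A1, was lowest for TCF7L2, TRH and CRH. CARTPT, a feeding peptide, had 859, 2894, 2246, 1506, 1371 and 1606. PTGFR, the prostaglandin F receptor, had 377, 794, 1043, 423, 271 and 581, the same 2 highest animals as OXT. PVN lineage factors moved as well: OTP, which PVN neurons require for their peptides, had 1442, 2319, 2574, 1341, 1277 and 1871, and SGM17 was highest for 5 of the 6 factors. Over all F3 genes SGM17 was highest for 19.2%. The median SD of the 6 factors was 0.19, against 0.077 over all genes, with none at 0.5 or above. In F3 2 of 6 arcuate and feeding peptides and 2 of 8 thalamic genes reached 0.5, and 0 of 9 astrocyte, 0 of 12 myelin, 0 of 9 endothelial and 0 of 7 microglia genes did so, where 0.521% of all genes did.

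Myelin genes stayed under an SD of 0.5 on the deposited scale, but their median SD was 0.15, 0.32 and 0.18 against 0.23, 0.15 and 0.077 over all genes. With size factors the F1 median was 0.32 against 0.092, so in F1 the list lay below all genes on one scale and above them on the other. MBP, myelin basic protein, had 23366, 20063, 21919, 22079 and 25643 normalized counts in F1. The F2 animals had 52007, 80064, 50718, 40819 and 53294, and those of F3 had 32913, 42663, 34050, 39901, 29891 and 40947. Its SD was 0.13, 0.35 and 0.20. None of the 12, 13 and 12 myelin genes measured had an SD of at least 0.5, and with size factors 1 did so in F2. In F2 SGM23 was highest in 11 of 13 and SGM28 lowest in 13 of 13, or in 12 and 9 with size factors. Over all F2 genes the shares were 3.06% and 34.6%, or 13.6% and 30.1% with size factors. In F3 SGM14 was highest in 8 of 12 and SGM9 lowest in 11 of 12, against 15.9% and 18.2% of all F3 genes. The reference gene list had a median SD of 0.22, 0.13 and 0.045. FOS, an early marker of neuronal activity, had 297, 238, 241, 185 and 228 in F1. Its F2 values were 234, 176, 372, 329 and 147, and its F3 values 299, 440, 222, 250, 258 and 292, with SDs of 0.24, 0.57 and 0.34.

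Co-variation was tested over all 16 animals on size-factor-scaled log2 values from which the mean of each generation was subtracted. Of 20 lead genes, each standing for a peptide, region or cell type, 17 could be used, which gave 136 pairs. Of these, 5 pairs passed a two-sided permutation test within generations with Benjamini-Hochberg adjustment, 4 positive and 1 negative, and 21 had an unadjusted p of at most 0.05. By Spearman's rho 0 pairs passed after adjustment. These p-values give how often an r or rho at least as large in size arose when animals were shuffled within generations. They cover these 16 animals only and count SGM11 as a full animal. Within-generation values of r are given for F3 (n = 6), since F1 and F2 have only 5 animals each.

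AVP and OXT, which are made in largely separate magnocellular neurons of the same nucleus, gave the strongest pair. Pearson's r was 0.902 (permutation p = 0.00029, adjusted p = 0.0187) and rho was 0.787 (permutation p = 0.00251, adjusted p = 0.102). In 13 of 16 animals both lay on the same side of the generation mean. Without the 2 animals farthest in AVP r was 0.794, and in F3 alone it was 0.980.

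CRH went with SIM1 (r = 0.793, permutation p = 0.00101, adjusted p = 0.0275, rho = 0.76, permutation p = 0.00351, adjusted p = 0.102). In 12 of 16 animals both lay on the same side, r was 0.636 without the 2 farthest animals, and it was 0.940 in F3. CRH also went with the thalamic gene TCF7L2 (r = 0.722, permutation p = 0.00035, adjusted p = 0.0187, rho = 0.76, permutation p = 0.00355, adjusted p = 0.102), on the same side in 15 of 16 animals. That r was 0.776 without the 2 farthest and 0.858 in F3. OXT went with FKBP5, a glucocorticoid-induced co-chaperone (r = 0.728, permutation p = 0.00055, adjusted p = 0.0187, rho = 0.68, permutation p = 0.0121, adjusted p = 0.214). Both lay on the same side in 12 of 16 animals, r was 0.662 without the 2 farthest and 0.819 in F3. SLC17A6, the vesicular glutamate transporter, and GAD1, the GABA-synthesizing enzyme, went in opposite directions (r = -0.758, permutation p = 0.00045, adjusted p = 0.0187, rho = -0.76, permutation p = 0.00347, adjusted p = 0.102). They lay on the same side in 3 of 16 animals, r was -0.636 without the 2 farthest and -0.757 in F3. Without SGM11 the same 5 pairs passed. Without SGM19, or without SGM29, 0 pairs passed, and without SGM17 only CRH and TCF7L2 did, so the adjusted calls rest on single animals.

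Each of 4 lead genes was then set against all 10499 other genes with limma, which gave a slope in log2 units of the gene per log2 unit of the lead gene, with the generation as a covariate. AVP was associated with 5 genes, all positive (0.0476% of genes tested), and 719 had an unadjusted p of at most 0.05. The 5 were OXT (slope 0.94 ± 0.12 SE, adjusted p = 0.00764), GMPPA, a regulator of GDP-mannose synthesis (slope 0.22 ± 0.029, adjusted p = 0.0109), TMEM114 (slope 0.60 ± 0.093), CAPRIN2, an RNA-binding protein (slope 0.46 ± 0.073), and PAX6, a neurodevelopmental transcription factor (slope 0.59 ± 0.096). Of the 4 other PVN peptides, OXT was called. CRH had a slope of 0.51 ± 0.14 (adjusted p = 0.398) and TRH one of 0.36 ± 0.14 (adjusted p = 0.674). Without SGM11 2 genes passed, and without SGM17, or without all of F1 or all of F3, 0 did.

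MBP was associated with 81 genes, 76 positive (0.724%) and 5 negative (0.0476%). Genes of the myelin sheath led. CLDN11, the tight junction protein of myelin, had a slope of 1.05 ± 0.065 (adjusted p = 5.27e-07), MAG, myelin-associated glycoprotein, 1.18 ± 0.078 (adjusted p = 5.27e-07), and UGT8, which makes galactocerebroside, 0.88 ± 0.058 (adjusted p = 5.27e-07). CNP and MOG followed at 0.72 ± 0.050 and 0.92 ± 0.072. Of the 11 other myelin genes tested, 9 were called, all positive: CLDN11, CNP, ERMN, MAG, MOBP, MOG, MYRF, OPALIN and UGT8. Of 5 oligodendrocyte precursor genes, 2 were called, OLIG1 and BCAS1, both positive. The 5 negative genes included PCSK1, a prohormone convertase (slope -0.67 ± 0.14, adjusted p = 0.0363), and NOS1, neuronal nitric oxide synthase (slope -0.40 ± 0.086, adjusted p = 0.0469). No astrocyte, microglial or endothelial list member was called. Without SGM11 61 genes passed, and without SGM23 of F2, the animal highest for MBP, 23. The negative calls were not stable: 0 negative genes passed on the deposited scale, without SGM7, SGM11, SGM27 or SGM9, or without all of F3. Without any 1 of the other animals, 1 to 10 negative genes passed.

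TCF7L2 was associated with 771 genes, 480 positive (4.57%) and 291 negative (2.77%). With sample totals in place of size factors it was 872 genes, 401 positive and 471 negative, so which direction held more genes depended on the scaling. NTNG1, netrin-G1, an adhesion protein of thalamic axons, led the positive genes (slope 0.51 ± 0.036, adjusted p = 1.79e-06). LHX9 had a slope of 0.76 ± 0.054 (adjusted p = 1.79e-06), RTN4R, the Nogo receptor, 0.30 ± 0.024 (adjusted p = 5.03e-06), and CALB2 0.47 ± 0.038 (adjusted p = 5.03e-06). Of 6 thalamic genes tested, 4 were called, all positive: CALB2, LHX9, RORA and ZIC4. Of the 6 forebrain GABA lineage genes, 4 were called, all negative: DLX1, DLX2, DLX5 and DLX6. The transmitter genes divided in the same way, with SLC17A6 positive, and GAD1, GAD2, SLC32A1, the vesicular GABA transporter, and TH, the first enzyme of catecholamine synthesis, negative. Of 5 suprachiasmatic and anterior hypothalamic genes, 4 were called, all negative: AVPR1A, LHX1, SIX3 and SIX6. SLC10A4, a vesicular transporter of monoamine and cholinergic neurons, led the negative genes (slope -0.36 ± 0.034, adjusted p = 1.65e-05). Of 9 endothelial genes, 4 were called, all negative: ESAM, FLT1, PECAM1 and TEK. Of 5 PVN peptides CRH was called, positive (slope 0.24 ± 0.060, adjusted p = 0.0250). Without SGM11 567 genes passed, without SGM28 of F2 364, and without SGM29 of F2 1282.

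**Figure D5:**
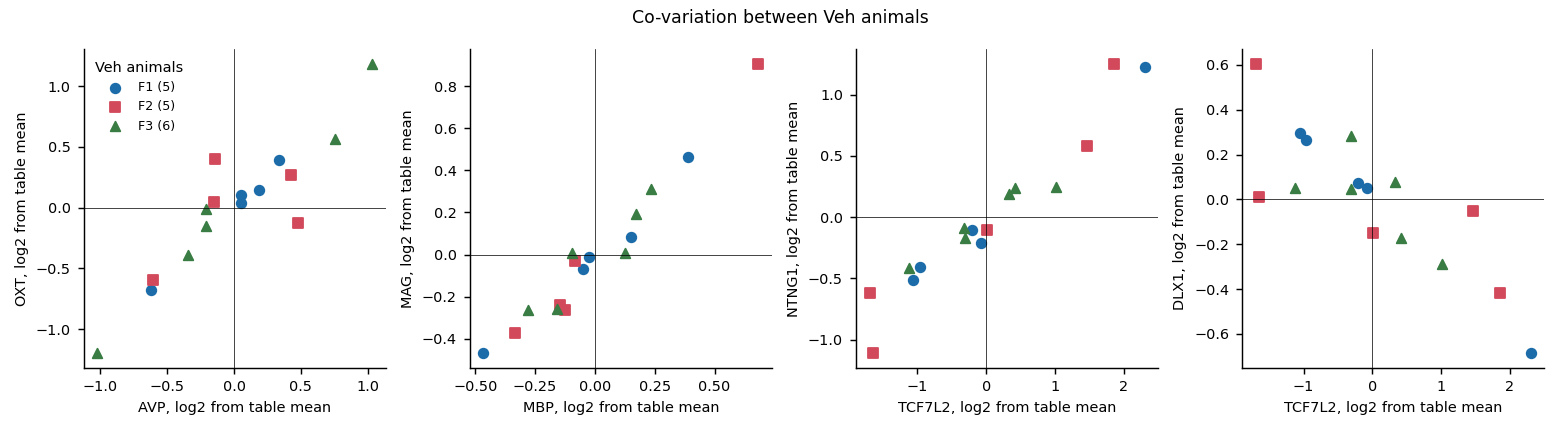
Size-factor-scaled log2 values minus the mean of the generation for OXT against AVP, MAG against MBP, and NTNG1 and DLX1 against TCF7L2, 1 point per Veh animal (5 in F1, 5 in F2, 6 in F3). MAG and NTNG1 rise along the axis and DLX1 falls, with SGM15 of F1 at the far right for TCF7L2.

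FOS was associated with 0 genes after adjustment (0% of genes tested) by limma, and 332 had an unadjusted p of at most 0.05. The likeness of the PVN peptides to all other genes is given as a description over the 16 animals. The 5 genes most like AVP were GMPPA (r = 0.945), OXT (0.902), PAX6 (0.861), TMEM114 (0.860) and SPX, the peptide spexin (0.859). The 5 most like OXT were PTGFR (0.923), SPX (0.918), BVES (0.916), POU3F2 (0.906) and AVP (0.902). CRH was most like CACNG3 (0.918), an AMPA receptor auxiliary subunit, and then PAX6 (0.872), TMEM199 (0.849), ADAMTS2 (0.849) and SH3GL2 (0.846). TRH was most like RCOR2 (0.811), CASP2 (0.802), GNAI1 (0.796), CACNG3 (0.766) and GNB4 (0.739), and SST most like TXLNG (0.891), CHADL (0.873), XRCC5 (0.861), ACP2 (0.838) and PCBP1 (0.817). Besides AVP and OXT themselves, 3 genes stood among the 5 for a pair of peptides, SPX for AVP and OXT, PAX6 for AVP and CRH, and CACNG3 for CRH and TRH. Each is 1 of 10499 genes compared, and the highest values of so many are high by selection.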

How the data were processed

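RNA of 1 PVN punch per animal was sequenced, and the 16 Veh animals (5 F1, 5 F2, 6 F3) were taken by their labels. The authors aligned the reads to cavPor3, counted them per gene, removed outliers by Cook's distance, corrected F3 for 2 sequencing batches, dropped technical replicates and normalized by residuals. What the authors deposited is a score in the sense used here: a normalized count per gene that had been rounded, so a model for raw counts was not applied. The depth behind each value is not recoverable from them, and precision rests on 5 or 6 animals. Each deposited table also holds the authors' comparison columns (fold change, likelihood ratio, p-value and false discovery rate), which were not used.

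SDs were taken on log2(value + 1), pseudocount 1, mean of at least 50. Median-of-ratios size factors were applied for co-variation and the associations. For SDs, components and counts of highest and lowest animals they were an alternative, named where used. Lead gene pairs were tested two-sided with 100000 permutations within generations. Associations were fitted with limma 3.58.1 in R 4.3.3 (generation as covariate, genes passing the minimum of 50 in all 3 generations, threshold 0.05, Benjamini-Hochberg). The fit was tried on simulated data in which 200 of 10499 genes were given a slope of size 1, positive or negative. Noise was drawn independently for each gene and animal, so co-variation between genes was left out. Recovery was 98.5% for AVP with 5 false calls, 94% for MBP with 20, 100% for TCF7L2 with 14 and 96% for FOS with 15. Many slopes called in the animals were smaller, such as 0.22 for GMPPA, and these rates do not apply to them.

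The genes named are the 15 most abundant and 20 most variable per generation, those among the 100 most variable in all 3, 20 lead genes, up to 4 members of each of 29 lists, the 5 smallest p-values per direction and association, and the 5 genes most like each PVN peptide. Further members of short counts were named after their values were seen. The members and lists were chosen with earlier results of these data known. Alternatives were other scalings, pseudocount 10, means of at least 10 or 200, SD above the running median over 301 genes, and leaving out each animal or generation. Symbols are as filed. Some of them had been turned into dates (19 in F1) and name no gene here. No sequences and no transcript lengths were used. Some items are not reported here.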

Additional observations from a re-analysis of the deposited data

Results flagged for a closer look

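Dixon's criterion was applied to 127 sets of 5 or 6 animals: log2 values of lead genes and further genes named here, and sample totals. It marked 11 sets with 1 animal far from the others, where chance alone marks about 1 in 20, or 6.35 of 127. In F1, SGM19 was low for AVP at 48718 normalized counts (others 88264 to 110112), SGM7 was high for POMC at 1372 (102 to 204) and for TBX3 at 798 (40 to 96), and SGM15 was low for GAD1 at 2737 (5373 to 6595) and for DLX1 at 591 (1124 to 1394). In F2, SGM29 was low for CRH at 162 (253 to 285) and high for GAD1 at 9795 (4215 to 5198), and SGM27 was high for PMCH at 11697 (5657 to 6712). In F3, SGM9 was low for SST at 2674 (4630 to 6153) and for TH at 272 (567 to 822), and SGM14 was low for GAL, galanin, at 294 (500 to 596).

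GAD1 and DLX1, both of GABA neurons, were low together in SGM15, the F1 animal highest for thalamic genes. In F2 GAD1 was high in SGM29, which was lowest for TCF7L2 and SHOX2. Where the punch lay in each animal is not given, and its part in these values was not tested. The sets chosen for a wide spread are also the ones most open to such marks.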

How the results depend on the processing

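The number of genes with an SD of at least 0.5 followed the minimum mean. In F1 it was 240, and 137 with size factors, 141 with sample totals, 437 with a mean of at least 10, 107 with at least 200 and 47 for SD above the running median. In F2 it was 517, and 810, 273 and 231 under the last 3 of these, and 152 without SGM22 and SGM28 together, which was chosen after seeing the data. In F3 it was 57, and 146, 20 and 20. Leaving out 1 animal gave 164 to 385 in F1 (lowest without SGM7, highest without SGM11), 310 to 683 in F2 (lowest without SGM22) and 46 to 78 in F3. Shared genes among the 50 of highest SD were 5 with size factors and 6 with a mean of at least 200 for F1 and F2 (3 as reported, 2 to 10 without 1 animal), and 10 to 15 without 1 animal for F1 and F3 (16 as reported). For F2 and F3 (1 as reported) they were 2 with size factors, with pseudocount 10 and for SD above the running median, 5 with a mean of at least 10 or 200, and 0 to 6 without 1 animal. Lead pairs past the threshold were 2 on the deposited scale, 0 in F3 alone (n = 6, 12 at an unadjusted p under 0.05, by the permutation test) and 0 to 11 without 1 animal: 0 without SGM19 or SGM29, 1 without SGM17, 2 without SGM15 and 11 without SGM9. Genes associated with AVP were 10 on the deposited scale, 0, 10 and 0 without F1, F2 and F3, and 0 to 14 without 1 animal, with 2 or 3 without any F1 animal, SGM29, SGM14 or SGM1, 0 without SGM17, and 8 to 14 without SGM22, SGM23, SGM27 or SGM28. Those associated with MBP were 10 on the deposited scale, 36, 45 and 33 without each generation, and 23 to 103 without 1 animal (23 without SGM23). Those associated with TCF7L2 were 191 on the deposited scale, 249, 333 and 307 without each generation, and 364 to 1282 without 1 animal (479 without SGM15, 455 without SGM22, 364 without SGM28, 1282 without SGM29). FOS gave 0 genes by limma under every alternative run. With sample totals the TCF7L2 genes were 401 positive and 471 negative, against 480 and 291. None of the 5 lead pairs that had passed changed the sign of r. The signs of the slopes of the genes named for each association were not compared between alternatives, and the causes of these shifts were not tested. Ranking per kilobase was not run, since no transcript lengths were used. No paired analysis was possible because the generations share no animal numbers and only Veh animals were compared.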

Other observations

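Small RNAs of the cell's own machinery were among the most variable entries in F1 and F3. RNase_MRP, the RNA of an endonuclease that cuts ribosomal RNA precursors, had 154, 46, 67, 125 and 38 normalized counts in F1, an SD of 0.87, and 651, 226, 256, 255, 163 and 109 in F3, an SD of 0.86. RNaseP_nuc, the RNA that trims transfer RNA precursors, had 193, 54, 96, 161 and 74 in F1 and 466, 133, 156, 219, 86 and 98 in F3, SDs of 0.76 and 0.88. The same animal was highest for both in each generation, SGM3 in F1 and SGM13 in F3. In F2 their means were 5.4 and 5, under the minimum for a spread. The libraries were made by selecting polyadenylated RNA, which these transcripts largely lack, and the part of library preparation was not tested.

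Of the core clock genes, 0 of 18 had an SD of 0.5 or above in F1, 1 of 18 in F2 and 0 of 16 in F3, where 2.19%, 4.65% and 0.521% of all genes did. They had median SDs of 0.26, 0.13 and 0.11 against 0.23, 0.15 and 0.077 over all genes. Heat shock and chaperone genes had median SDs of 0.25, 0.12 and 0.064. The 50 most variable genes of a generation ranked high in the others by their median SD percentile, though not every one of them did. Of the F1 genes, 39 had a mean of at least 50 in F3, at a median SD percentile of 99.2 there. Of the F2 genes, 45 had such a mean in F3, at a median percentile of 89.4.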
